A study of Rattus norvegicus with 2 samples.

Results

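The genes described here encode the neuropeptides somatostatin (Sst), vasoactive intestinal peptide (Vip) and PACAP (Adcyap1), together with their receptors Sstr1, Sstr2, Sstr3, Sstr4, Vipr1, Vipr2 and Adcyap1r1. They were chosen by name, as the rat RefSeq genes whose transcript accessions are printed on the array, and make up 10 of 16575 genes named there. Their 15 probes occupied 25 spots, and no spot of them carried an outlier flag or was saturated. Expression was measured in the nucleus of the solitary tract (NTS) of spontaneously hypertensive rats (SHR), for which the labels name no treatment or transgene. A male and a female group were compared, each of 5 rats aged 9 weeks. RNA of each group was pooled before labelling, so each sex is 1 array and nothing measures the spread between animals. No test was possible, and every difference is between these 2 pools.

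The NTS of the dorsal medulla receives the baroreceptor, chemoreceptor and visceral afferents of the vagus and glossopharyngeal nerves. Somatostatin is made in the brain by many local inhibitory neurons, and its receptors couple to Gi proteins, which lower cAMP and open inwardly rectifying potassium channels. VIP and PACAP are related members of the secretin family. Both act on the Gs-coupled receptors VPAC1 (Vipr1) and VPAC2 (Vipr2), whereas PAC1 (Adcyap1r1) prefers PACAP, and all of them raise cAMP.

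Values are given as scaled signal, which is the background-corrected spot intensity divided by the 75th percentile of its array and multiplied by 100. Differences are female minus male on the log2 scale, and folds divide the brighter pool by the dimmer. Signals of different probes depend on the probe, so no gene's level is set against another's. Of all named genes, 13429 were well above background on both arrays, and their differences had a median of 0.02 and an SD of 0.23. In the dimmest 25% of these genes the SD was 0.36, and in the brightest 25% it was 0.13. Probes printed at least 8 times gave a median spot-to-spot SD of the difference of 0.18 in the dimmest and 0.04 in the brightest 25%, which covers spots and not animals, pooling or labelling.

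Of the 10 genes, 9 were well above background on both arrays, and Vip was so in the female pool only. Of these 9 genes, 4 were brighter in the female pool, where 55.5% of all genes were brighter, and 5 in the male pool. Their median difference was -0.02. Sstr2 was the 1 gene past 1.5-fold, on the male side. Over all genes, 2.3% were past 1.5-fold, 201 of them higher on the female and 108 higher in the male pool, which is 1.5% and 0.804% of genes. The split was 137 to 158 after quantile normalization and 282 to 82 when the arrays were centred on the spike-in controls. At 1.2-fold, 2 of the 9 genes, Sstr1 and Sstr2, were past the limit, beside 11.8% of all genes.

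**Figure D1:**
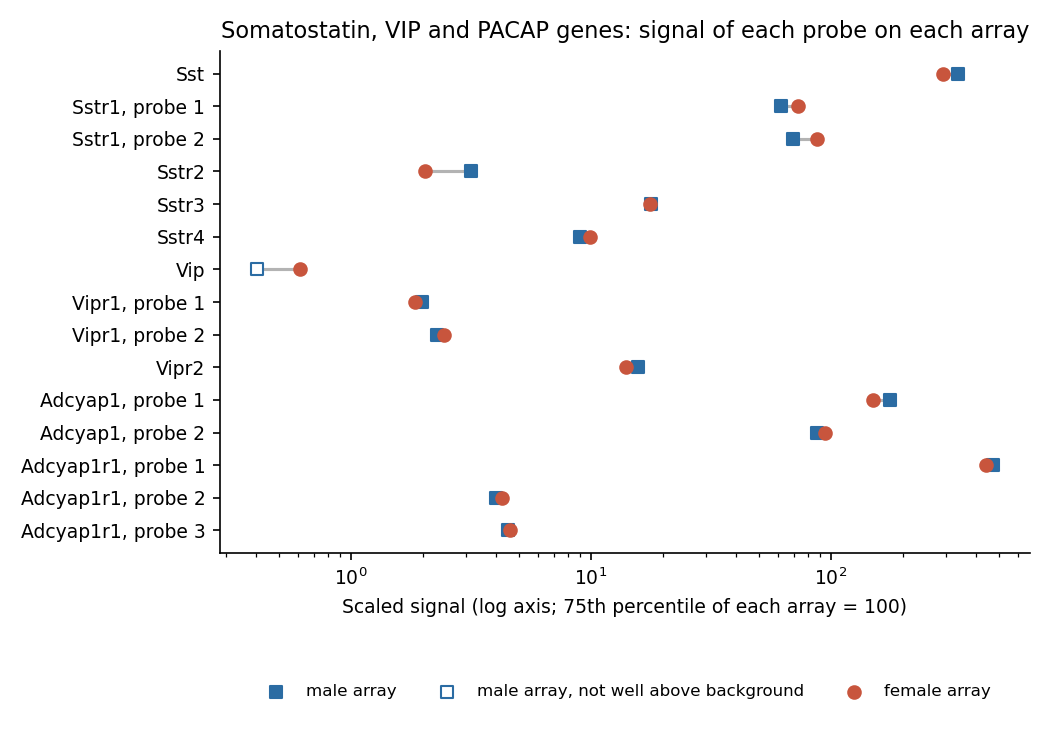
Scaled signal (log axis) of each of the 15 probes in the male (squares) and the female pool (circles), 1 line per probe, with an open square where the probe was not well above background. Sstr2 and Vip show the widest gaps in opposite directions, and both lie at the dim end of the axis.

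Sst, the gene of somatostatin, was read by 1 probe printed in 10 spots, more than any other of these genes. In the male pool the spots ran from 323 to 357 with a median of 335, and in the female pool from 281 to 311 with a median of 290. The lowest male spot was above the highest female spot. How many other repeated probes separate in this way was not counted, and spots of 1 probe are not replicates of a pool. The mean difference was -0.21 ± 0.05 (SD over 10 spots), 1.16-fold higher in the male pool, and all 10 spots were lower in the female pool, by -0.29 to -0.13. This is larger than the spread of its spots, close to the error of 0.20 that the scanner software models for a single spot on both arrays, and remains a difference between 2 pools. Over all 1323 probes with repeated spots, 38 probes were as low or lower in the female pool and 30 were as far higher there, together 5.14%. With spike-in centring the Sst difference was -0.13.

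**Figure D2:**
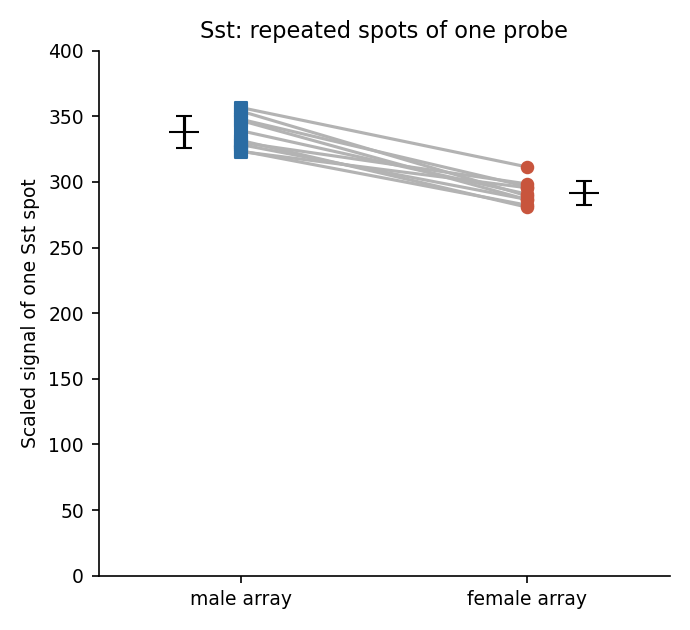
Scaled signal of the 10 spots of the Sst probe in the male (squares) and the female pool (circles), with grey lines joining the same spot position and bars at the sides giving the mean and SD over spots. Every line runs down from the male to the female pool, from a mean of 338 to 292.

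Vip, the gene of vasoactive intestinal peptide, was at the limit of detection. Its 1 spot read 44 against a local background of 36 in the male pool and 51 against 35 in the female pool, in raw scanner units. After background correction the scaled signal was 0.405 in the male pool, where it was not well above background, and 0.613 in the female pool. The modelled error that the scanner software attaches to the spot was 25.7% and 17.6% of the signal. Taking its own male signal, Vip was 1.52-fold higher in the female pool, a difference of 0.60. The modelled error of that difference was 0.45 on the log2 scale, so the fold is not a lower bound. It rests on 1 spot per array.

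Adcyap1, which encodes PACAP, had 2 probes that went in opposite directions. Probe A_44_P1087038 gave 175 in the male and 149 in the female pool, 1.17-fold higher in the male pool. Probe A_44_P1109499 gave 87.7 and 94.6, 1.08-fold higher in the female pool. Their mean difference was -0.06, and it was 0.02 with spike-in centring, so that no direction held for this gene. No member of the PACAP system passed 1.5-fold.

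Among the somatostatin receptors, Sstr1 and Sstr2 differed most and in opposite directions. Sstr1 was brighter in the female pool with both of its probes. Probe A_43_P11531 read 61.8 in the male and 72.98 in the female pool, and probe A_64_P090866 read 69.7 and 86.98. The differences of 0.24 and 0.32 averaged to 0.28, which is 1.21-fold. The SD over genes of like brightness was 0.13 and the spot error 0.04. Each probe had 1 spot, and the error that the scanner software models for it was 0.20, near the smaller of the differences. Over the other settings the difference stayed between 0.25 and 0.36.

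Sstr2, the receptor targeted by octreotide and an activator of potassium channels in many neurons, had 1 probe in 1 spot. The scaled signal was 3.16 in the male and 2.03 in the female pool, a difference of -0.63 or 1.55-fold higher in the male pool. Before correction the spot read 108.5 against a background of 36 in the male and 84 against 31 in the female pool. Sstr2 is among the dimmest 25% of genes, where 7% of genes were past 1.5-fold and the spot error was 0.18. The difference shrank to -0.28 with normexp background correction, to -0.404 without background correction and to -0.55 with spike-in centring, all short of 1.5-fold, while the male pool stayed the brighter.

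Sstr3, a receptor known for its place in neuronal primary cilia, read 17.7 in the male and 17.5 in the female pool. The difference of -0.02 was below the spot error of 0.05, and it was 0.07 with spike-in centring. Sstr4 read 9.01 and 9.93, 1.1-fold higher in the female pool, with a difference of 0.14 against an SD over like genes of 0.20. Neither receptor stood outside the spread of genes of its brightness.

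The VIP and PACAP receptors differed little. Vipr1, the gene of VPAC1, was dim, and its probes disagreed in direction. Probe A_42_P670580 gave 1.97 in the male and 1.85 in the female pool, while probe A_44_P1156847 gave 2.27 and 2.44, so that the mean difference was 0.0046. Vipr2, the gene of VPAC2, known for its role in the circadian pacemaker, gave 15.7 in the male and 13.9 in the female pool. That is a difference of -0.17 or 1.13-fold higher in the male pool, within the SD of 0.20 over like genes, and it was -0.09 with spike-in centring.

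Adcyap1r1, the gene of PAC1, had 3 probes. The 2 spots of probe A_42_P726223 read 462 and 483 in the male pool and 433 and 449 in the female pool, a mean difference of -0.10. The other probes read 4.01 and 4.52 in the male pool and 4.25 and 4.59 in the female pool, with differences of 0.09 and 0.02. Averaged over probes the gene was within 1.00-fold. The single-spot error that the software models was 0.20 to 0.21 on the log2 scale for these probes, larger than each of the 3 differences.

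**Figure D3:**
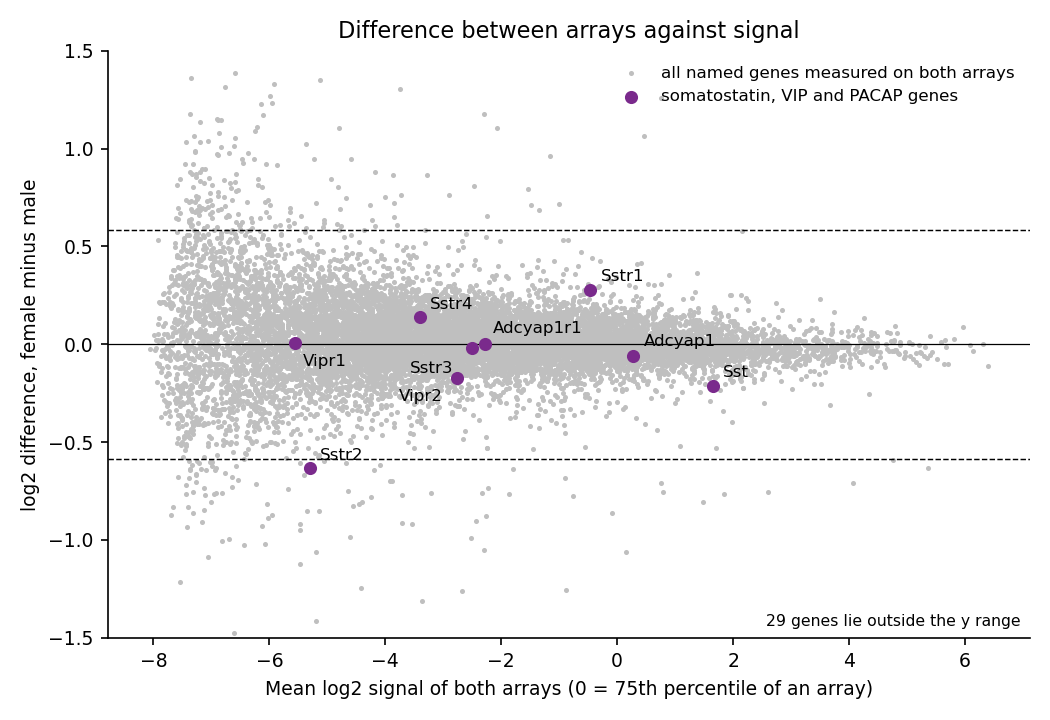
Difference between arrays (female minus male, log2) against the mean log2 signal for 13429 named genes (grey) and the 9 measured somatostatin, VIP and PACAP genes (purple), with dashed lines at 1.5-fold. Sstr2 lies below the lower line where grey points spread widely, Sst and Sstr1 lie at the edge of a narrower cloud, and 29 genes fall outside the plotted range.

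Transcription of Sst and Vip is a textbook case of control by cAMP through the cAMP response element (CRE), the palindrome TGACGTCA bound by CREB. Because the receptors of all 3 peptides act on cAMP, this motif was searched on both strands in RefSeq promoter windows of assembly GRCr8, from 250 bases before to 50 bases after each annotated start, which were found for all 10 genes. The full motif was present in Sst and Sstr2, and in 1.83% of all 33469 windows. Vip carried TGACGTCT, a variant with another last base, which is in 0.61% of all windows on either strand. The shorter site TGACG, which lies within both, was in 5 of the 10 windows, adding Sstr1 and Vipr1, and in 21.2% of all windows. Stretches of the 3 windows with the full motif or its variant follow, read 5′ to 3′ on the plus strand with the motif in capitals. Sst is shown at chr11:90461446-90461565, Sstr2 at chr10:99163233-99163352 and Vip at chr1:44470360-44470479.
Sst: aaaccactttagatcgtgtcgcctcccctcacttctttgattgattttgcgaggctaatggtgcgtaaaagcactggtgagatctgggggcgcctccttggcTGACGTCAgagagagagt
Sstr2: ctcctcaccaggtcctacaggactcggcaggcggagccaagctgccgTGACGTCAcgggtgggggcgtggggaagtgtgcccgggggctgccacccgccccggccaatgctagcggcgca
Vip: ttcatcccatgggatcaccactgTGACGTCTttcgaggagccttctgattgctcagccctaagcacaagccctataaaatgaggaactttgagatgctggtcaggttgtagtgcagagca
The motif begins at base 3 counted from the annotated start of Sst, 73 bases before that of Sstr2 and 97 bases before that of Vip. Whether transcription begins at these annotated starts in the NTS was not tested. The sequences are a description and do not show that a factor binds there. Sst and Sstr2 were both brighter in the male pool. Of the 325 measured genes with the full motif, 159 were brighter in the male and 166 in the female pool. The median difference of those 325 genes was 0.0020, beside 0.02 for all genes. Of them, 3 (0.92%), Sstr2 included, were past 1.5-fold, beside 2.3% of all genes. These 3 were all higher in the male pool, where 0.804% of all genes were past 1.5-fold. The part of the motif in these differences was not tested.

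Genes around these peptides were read from lists chosen by function, with earlier results of these data known. Of their 90 measured genes other than those described so far, 3 (3.33%) were past 1.5-fold, beside 2.3% of all genes. Of 12 genes of related peptides and receptors, 9 were measured, with a median of 0.04. Gipr, the receptor of the incretin GIP and also a Gs-coupled secretin family member, was 1.53-fold higher in the female pool, at 8.90 against 5.82, and 0.38 instead of 0.61 with normexp. Gcg, the glucagon precursor gene that gives GLP-1 in a small group of NTS neurons, read 43.9 in the male and 30.3 in the female pool, 1.45-fold. Sct, which encodes secretin, read 2.18 and 1.55, 1.41-fold higher in the male pool. Sstr5 and Cort, the gene of the somatostatin-like peptide cortistatin, were picked after their values were seen to complete the family, and were both within 1.03-fold. Gip, Ghrhr and Glp2r were not well above background on either array.

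Of 60 measured genes of the signalling steps behind the receptors, 0 were past 1.5-fold, a count near the share of 2.3% over all genes. All 16 measured G proteins and adenylyl cyclases lay between -0.16 and 0.18, with a median of 0.02, where 10 were brighter in the female pool. The extremes were Gnas, which encodes the Gs alpha subunit, 1.11-fold higher in the male pool at 417 against 374, and the dim cyclase gene Adcy4 at 1.06 and 1.2, whose sign turned to -0.05 with normexp. Gnaz, of the Gi class, was at 0.12. The 13 measured cAMP effectors had a median of 0.02, with the protein kinase A subunit gene Prkar2b at 0.22, the cAMP-gated exchange factor gene Rapgef3 at 0.22 and Creb1 at 0.14. The 13 measured phosphodiesterases, which break down cyclic nucleotides, had a median of 0.04. Of these, Pde1b at -0.31 and Pde4b at -0.29 were lower and Pde8b at 0.27 was higher in the female pool. Among the 4 potassium channel genes opened by Gi-coupled receptors, Kcnj3 was at -0.14, Kcnj5 at 0.23 and Kcnj9 at 0.05. Of the 14 receptor regulators, Pdzk1 was dim and the furthest from 0, at 0.58, and at 0.19 with normexp, followed by Shank1 at 0.28 and Arrb1 at 0.20.

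Genes of precursor processing, which encode cleaving and amidating enzymes and their binding partners, differed little between the pools. All 8 on the list were measured, with differences of -0.0089 to 0.17, led by Furin at 0.17, Pcsk2 at 0.07 and Pcsk4 at 0.04. Of the 5 measured peptidases known to cleave these peptides, Mme, the gene of neprilysin, was 2.87-fold higher in the female pool, at 4.56 against 1.59, with a difference of 1.52 that was 0.72 with normexp. Nln was at 0.27 and Ece1 at -0.14. Of 10 genes known to respond to cAMP or PACAP, Fos was past 1.5-fold, at 7.27 in the male and 4.74 in the female pool, which is 1.53-fold. Its difference was -0.62, and -0.38 with normexp. Nr4a1 at -0.32 and Pde4b at -0.29 were also lower in the female pool, but 4 of the 10 genes were higher there and the list median was -0.09. Fos and Nr4a1 are immediate early genes that many stimuli induce.

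**Figure D4:**
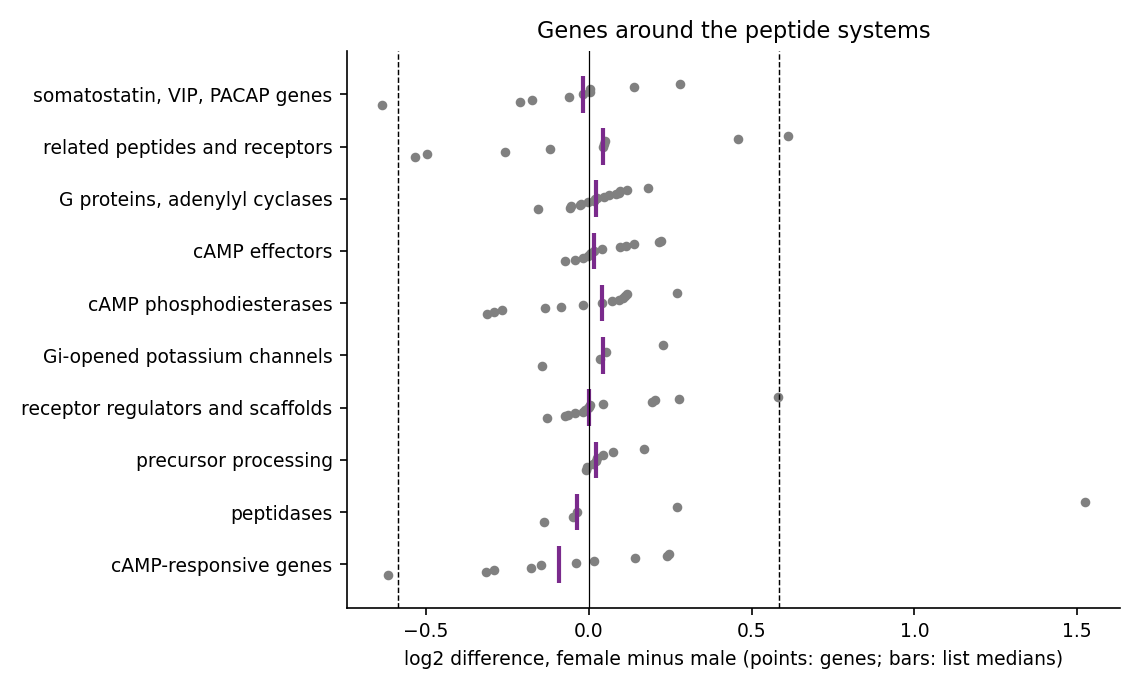
Difference between arrays (female minus male, log2) of each measured gene (points) in 10 lists around the peptide systems, with the median of each list as a bar and dashed lines at 1.5-fold. The list medians lie between -0.09 and 0.04, and Mme, a dim gene with 1 probe, stands alone at 1.52.

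Bulk tissue cannot tell fewer cells of a type from less RNA per cell, so marker lists of the cells in the sample are given beside the results. These lists too were chosen with earlier results of these data known. Markers of NTS and dorsal medulla neurons were present: 8 of 10 had a named probe, all 8 were well above background on both arrays, and their median was 0.12 (-0.18 to 0.25). The 8 inhibitory neuron markers had a median of 0.0082 (-0.19 to 0.17), beside 0.02 over all genes. Many somatostatin neurons of the brain belong to this class. The part of their number in the Sst difference of -0.21 was not tested. The 8 general neuron markers had a median of -0.04 (-0.13 to 0.09).

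The pools differed in marker RNA of other cells. All 10 choroid plexus markers were past 1.5-fold in the female pool, with differences of 0.96 to 4.56, and their summed scaled signal was 785 in the male and 9807 in the female pool. Sstr1, Sstr4, Gipr and Mme were also higher in the female pool, as was Vip at the limit of detection. Sst, Sstr2, Vipr2, Gcg and Fos were lower there. All 4 measured blood markers were past 1.5-fold in the male pool, with a summed signal of 266 against 157. The 7 oligodendrocyte markers (median -0.20) and the 6 markers of vagal and hypoglossal motor neurons (median -0.25) were all higher in the male pool. The summed signal was 2018 in the male and 1695 in the female pool for oligodendrocytes and 720 and 614 for motor neurons. Astrocyte, microglial and endothelial medians were -0.09, -0.07 and -0.09. Of the 7 markers of meninges and connective tissue, 6 were higher in the female pool, with a median of 0.34 (-0.76 to 1.17), and 3 were past 1.5-fold there. Their summed signal was nonetheless 648 in the male and 589 in the female pool, since 1 bright marker was past 1.5-fold in the male pool. No marker with a value in these lists was at 0. The part of these cells in the differences of the genes described here was not tested.

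**Figure D5:**
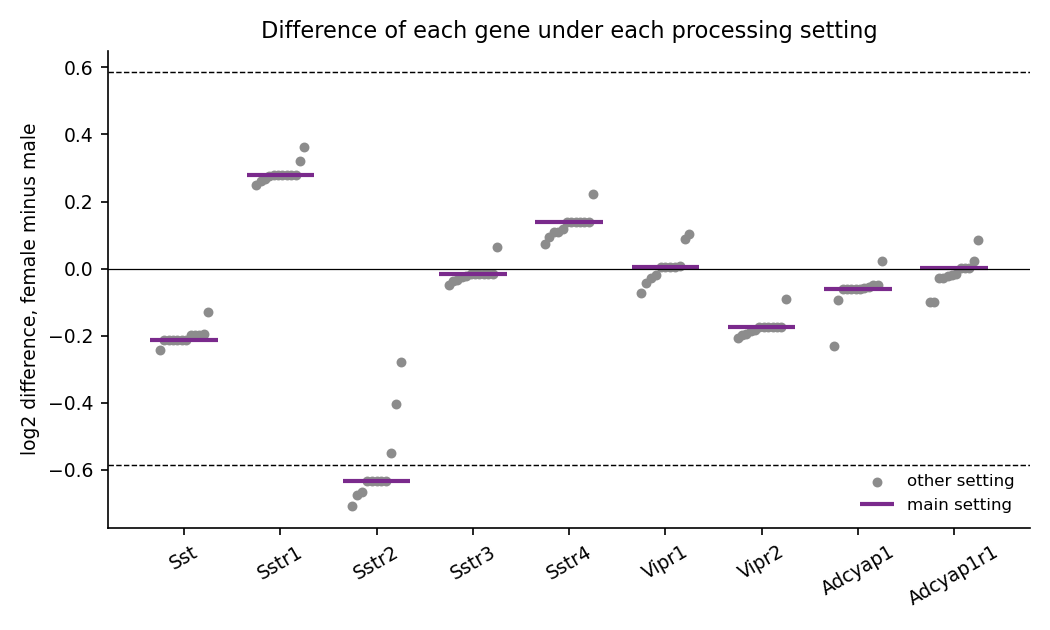
Difference between arrays (female minus male, log2) of the 9 measured genes under the main setting (bars) and up to 12 other processing settings (points), with dashed lines at 1.5-fold. Sst stays between -0.24 and -0.13 and Sstr1 between 0.25 and 0.36, while Sstr2 ranges from -0.71 to -0.28 and Adcyap1r1, Vipr1, Adcyap1 and Sstr3 have points on both sides of 0.

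Over the 12 other settings, Sst, Sstr2 and Vipr2 were brighter in the male pool and Sstr1 and Sstr4 in the female pool wherever they had a value, while Sstr3 and Adcyap1 turned with spike-in centring. Vipr1 kept its sign in 7 of 11 settings and Adcyap1r1 in 5 of 12. Settings that change only the probe filter, the summary of a gene, the flagged spots or the source of the values cannot move a gene with 1 unflagged probe such as Sstr2. Of the 6 settings that change the background correction or the scaling, Sstr2 was past 1.5-fold in 3.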

How the data were processed

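Each array is 1 colour (Cy3) and holds pooled RNA of 1 sex, 100 ng per rat per the labels' protocols. The deposited intensity values were written by Agilent Feature Extraction, 9.1 per the submitters' processing notes and 11.5.1.1 per the file headers, and the processed signal is background-corrected. The authors' deposited value table equals that intensity divided by 22.8 (male) or 23.4 (female). Its column medians are 19.4 and 19.6, it is linear, not centred by gene, and without a direction of its own. The array design uses rn4, so GRCr8 served for names and for the promoter sequences, which are RefSeq's.

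The log2 processed signal had the array's 75th percentile of non-control spots subtracted. Spots flagged as outliers on either array were left out (284 male, 363 female). Repeated spots of a probe were averaged, as were probes well above background on both arrays. Of 58717 spots, 80.1% and 82.3% were well above background on the male and female array. Accessions named 21102 of 45598 probes. Both arrays shared 1 slide and scan. The Vip fold uses the higher of its own male signal and that of the lowest well-above-background male probe. The scaled and corrected values, normexp (offset 50), quantile and loess settings came from Python 3.11.15, numpy 2.4.6, pandas 2.3.3, R 4.3.3 and limma 3.58.1. The normexp and uncorrected settings start from the spot median signal and tend to shrink log2 differences of dim genes. Only the 75th percentile scaling and the averaging of spots and probes were tested on simulated data.

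All 10 genes are described. From each list around them, the 3 genes furthest from 0 and any past 1.5-fold are named. Genes and lists were chosen with earlier results of these data known.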

Additional observations from a re-analysis of the deposited data

How the results depend on the processing

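No paired analysis was possible because there was a single pool for each sex. The count of the 10 genes past 1.5-fold, 1 in the main setting, was 0 with normexp, without background correction, with spike-in centring, in the brighter part of the probes (where Sstr2 and Vipr1 had no value) and at 2-fold, and it was 2 with no filter on dim probes, which adds Vip at 0.60. The count over all genes, 309, was 70 with normexp, 88 without background correction, 1647 with no filter on dim probes, 47 in the brighter part of the probes, 75 at 2-fold and 1095 at the lowest fold limit tried. In the other settings it was within 1.5 times of 309. Of 54 values of the 9 measured genes under the 6 settings that change the background correction or the scaling, 47 moved by less than the spot error of genes of like brightness and 7 by more, and Sstr2 kept its sign. Spike-in centring adds 0.08 to every gene. Low signal over background limits Sstr2, Vipr1 and Vip most.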
